A study of Drosophila melanogaster with 17 samples.

Results

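The genes described here are 38 genes of the fly that build the kinetochore, run the spindle checkpoint, compact and hold chromosomes, organise the spindle or split the cell in cytokinesis. They were chosen from a list of FlyBase symbols and matched to the identifiers of the deposited count table, where all 38 were found among 17737 genes. All 38 also passed the filter on low counts that left 11786 genes for testing. Their levels and changes are given in all 6 groups of libraries.

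Kinetochores are the protein assemblies on centromeres through which chromosomes attach to spindle microtubules, and the spindle checkpoint delays anaphase while any kinetochore is unattached. Condensin and cohesin shape and pair the chromosomes, motors and microtubule proteins build the spindle, and the central spindle and contractile ring divide the cell. In the adult fly midgut the cells known to divide are mainly intestinal stem cells, and loss of Notch in progenitors is known to give an excess of stem-like and enteroendocrine cells.

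The RNA was that of progenitor cells sorted from the intestines of Drosophila melanogaster, all of them adult virgin females. Every group carried esgts, a temperature-sensitive driver that is active in progenitor cells, and cells were sorted as small GFP-positive cells. The controls carried esgts alone, and the Notch RNAi flies (esgts/NRNAi in the labels' terms) carried the same driver with an RNA interference construct against Notch. Flies of both genotypes spent 5 days at 25 °C, were then kept germ-free or given Lactobacillus brevis or Lactobacillus plantarum as their single bacterial species overnight, and spent a further 5 days at 29 °C. The 6 groups were germ-free (n = 2), L. brevis (n = 3) and L. plantarum (n = 3) controls, and germ-free (n = 3), L. brevis (n = 3) and L. plantarum (n = 3) Notch RNAi flies. Each library pools 100 guts, so the spread within a group is that between pools and not between animals. The design text calls the replicates biological. Because the driver is the means both of knockdown and of sorting, and sorted cells were sequenced in bulk, more dividing cells and more RNA per dividing cell cannot be told apart in any result that follows.

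Total counts ran from 24192918 to 38237532 per library. Notch itself, the target of the RNA interference, had 166 to 224 CPM (counts scaled to 1000000 per library) in the 8 control libraries and 52.7 to 82.9 CPM in the 9 Notch RNAi libraries. Its log2 fold change was -1.57 (SE 0.118) germ-free, -1.32 (SE 0.108) under L. brevis and -1.72 (SE 0.109) under L. plantarum, and every knockdown library lay below every control. Among 7 measured progenitor markers, 1 was higher (Delta, which marks stem cells) and 5 were lower under Notch RNAi in the mean of the 3 conditions, and their summed level was 2150 to 2540 CPM in controls and 1230 to 1410 CPM under Notch RNAi. Of the 9 enteroendocrine markers 6 were higher and 2 lower, with sums of 12600 to 20400 CPM in controls and 16400 to 52500 CPM under Notch RNAi. Of the 11 enterocyte markers 8 were lower and 0 higher, with sums of 11700 to 25500 CPM in controls and 6430 to 24900 CPM under Notch RNAi. The summed visceral muscle markers lay between 16.4 and 179 CPM in every library but L. brevis control 3, which had 796 CPM, and 0 of 10 were called. Fat body markers summed to 6.78 to 16.9 CPM (1 of 4 tested genes higher, 1 lower), and haemocyte markers to 292 to 367 CPM in controls and 149 to 205 CPM under Notch RNAi (2 of 4 tested genes lower, 0 higher). The 17 ovary and germline markers summed to 9.74 to 14.1 CPM in controls and 24.1 to 52.3 CPM under Notch RNAi, with 3 of 8 tested genes higher and 1 lower. The eggshell gene Cp36 had a count of 0 in every library of 5 of the 6 groups. The part of these other cell types in the results below was not tested. Of all tested genes 29.6% were called higher and 26.9% lower in the mean of the 3 conditions.

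The first question was what knockdown of Notch did to the mitotic genes in each bacterial condition. Most of them rose, and they rose together in all 3 conditions. In germ-free flies 30 of the 38 genes were higher under Notch RNAi and 1 was lower, where a gene is called at an adjusted p under 0.05 in the quasi-likelihood test of edgeR, adjusted by the Benjamini-Hochberg method over all 11786 genes. The background for that comparison was 32.2% of all genes called, 17.5% higher and 14.7% lower. With L. brevis 34 genes were higher and 1 lower, against a background of 42.6% called, 22.3% higher and 20.3% lower. With L. plantarum 31 were higher and 1 lower, against 33.8% called, 17.6% higher and 16.2% lower. Averaged over the 3 conditions 33 were higher and 1 lower, against 56.6% called, 29.6% higher and 26.9% lower. The median log2 fold change of the 38 genes was 1.18 germ-free, 1.46 under L. brevis and 1.22 under L. plantarum, where the medians over all genes were 0.01, 0.00 and 0.04.

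The same 28 genes were called higher in each of the 3 conditions, as 10.9% of all genes were, and 1 gene, cal1, was called lower in each, as 9.07% of all genes were. At least 2-fold rises were called for 23, 24 and 22 of the 38 genes in germ-free, L. brevis and L. plantarum flies, against 7.24%, 9.24% and 7.76% of all genes. For 27 of the 38 genes every one of the 9 Notch RNAi libraries lay above every one of the 8 controls, which held for 9.91% of all genes. Within single conditions such separation was common among all genes. Without overlap, 32, 34 and 33 of the 38 genes were higher germ-free, with L. brevis and with L. plantarum. The shares of all genes were 32%, 26.7% and 24.2%. In the same order 2, 1 and 2 of the 38 were lower, against 29.1%, 24.7% and 21.2% of all genes. Summed over the 38 genes, the level was 565 to 672 CPM in controls, 940 to 1090 CPM in germ-free Notch RNAi libraries, 1010 to 1250 CPM with L. plantarum and 1270 to 1580 CPM with L. brevis. The sums of the control and the knockdown libraries therefore did not overlap, nor did those of L. brevis and the other knockdown groups.

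All 35 calls with L. brevis were also made in each of the 6 fits that left out 1 of its libraries, as were all 34 calls of the mean effect in each of 17 such fits. In germ-free flies 23 of the 31 calls were. There the calls of cid and Cap-G ended without germ-free control 1 and that of rod without germ-free control 2. Those of barr and vtd ended without germ-free control 1 or without any one of the Notch RNAi libraries, that of cal1 without either control or without Notch RNAi library 1 or 3, and those of Mps1 and asp in each of the 5. With L. plantarum 27 of the 32 calls were kept throughout. The calls of cid and Klp10A ended without Notch RNAi library 3, that of Grip91 without control 2, that of pim without control 2, control 3 or Notch RNAi library 3, and that of Zw10 without control 2 or 3 or Notch RNAi library 2 or 3.

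**Figure D1:**
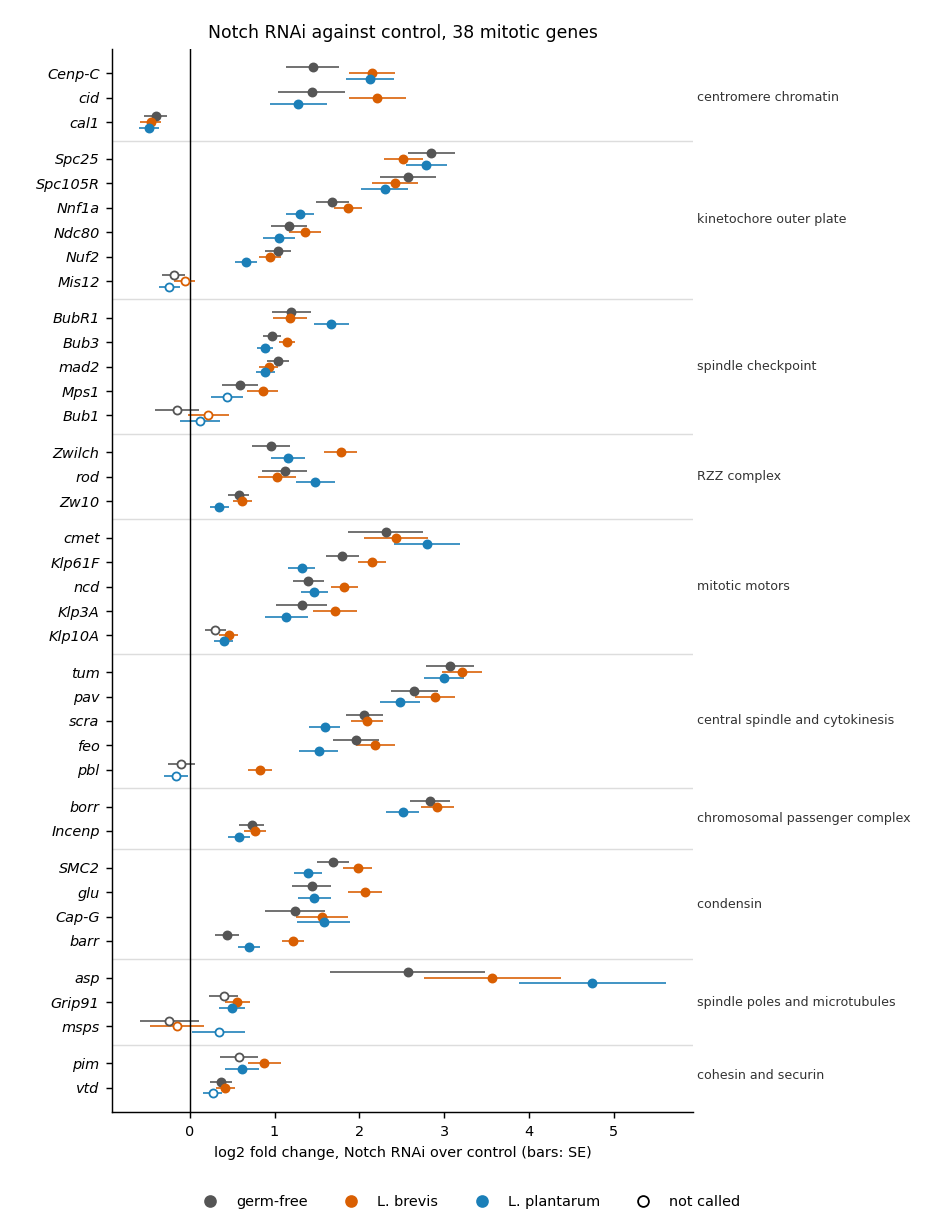
Log2 fold change of each of the 38 genes under Notch RNAi against control (x axis, bars are SE), by role (right), coloured by bacterial condition (grey germ-free, orange L. brevis, blue L. plantarum). Filled points were called at an adjusted p under 0.05 and open points were not. Most points lie right of 0 in all 3 conditions, tum near 3 in each. The points of cal1 lie left of 0 and those of Mis12 just left of it. Bub1, msps and pbl have points on both sides.

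Among the genes of centromere chromatin, 2 of 3 rose and 1 fell in every condition. Cenp-C (FBgn0266916, 3R:8564105-8569248, plus strand; coordinates here are those of Ensembl's annotation of BDGP6) encodes the protein that links centromeric nucleosomes to the outer kinetochore. Its control libraries had 5.01 and 3.5 CPM in the germ-free group, 3.14, 4.45 and 5.21 in the L. brevis group and 4.11, 2.11 and 2.83 in the L. plantarum group. Under Notch RNAi it had 12.2, 11.9 and 10.9 CPM in the germ-free group, 20.4, 21.6 and 14.8 in the L. brevis group and 10.9, 10.5 and 18.4 in the L. plantarum group. All 9 knockdown libraries stood above all controls, and the log2 fold change was 1.45 (SE 0.315) germ-free, 2.15 (SE 0.276) under L. brevis and 2.13 (SE 0.281) under L. plantarum (edgeR adjusted p = 0.00239, 1.44e-05 and 2.74e-05). The gene cid, which encodes the centromeric variant of histone H3, rose by 1.44, 2.21 and 1.28 (on the log2 scale, as are all changes below, with values given in threes in the order germ-free, L. brevis, L. plantarum; edgeR adjusted p = 0.011, 7.87e-05 and 0.00799), from at most 1.45 CPM in controls to between 1.43 and 5.41 CPM. Its lowest knockdown library lay just under its highest control.

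In contrast to both, cal1 (FBgn0038478, 3R:17088280-17091938, plus strand), whose product loads the centromeric histone, fell. Control levels were 54.3 and 60 CPM in the germ-free group, 41.5, 45.3 and 45.4 in the L. brevis group and 50.1, 53.3 and 56.3 in the L. plantarum group. Knockdown levels were 40.4, 51.2 and 38.7 CPM in the germ-free group, 32.5, 37.3 and 26.5 in the L. brevis group and 37.9, 38 and 38.9 in the L. plantarum group. Within each bacterial condition every knockdown library lay below every control, although L. brevis controls overlapped the germ-free knockdown libraries. Of all genes 29.1%, 24.7% and 21.2% were lower without overlap germ-free, with L. brevis and with L. plantarum. For cal1 the log2 fold change was -0.40 (SE 0.135) germ-free, -0.46 (SE 0.122) under L. brevis and -0.48 (SE 0.122) under L. plantarum (edgeR adjusted p = 0.0353, 0.00701 and 0.0067), so cal1 and its cargo cid moved in opposite directions in these libraries. The exons of cal1 share 11.3% of their bases with cher on the opposite strand, and whether strand was used in counting is not given in the sources used here.

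In the outer plate of the kinetochore, 5 of 6 genes rose in every condition. Spc25 (FBgn0087021, 3R:12961745-12963249, plus strand) encodes a subunit of the NDC80 complex, which grips microtubules. Its controls had 1.91 and 1.08 CPM in the germ-free group, 3.98, 3.69 and 3.24 in the L. brevis group and 1.85, 1.14 and 2.07 in the L. plantarum group. The knockdown libraries had 11.1, 10.8 and 10.9 CPM in the germ-free group, 19.3, 23.5 and 19.9 in the L. brevis group and 10.9, 9.45 and 14.7 in the L. plantarum group. The gap between the highest control and the lowest knockdown library was more than the spread within any group. For Spc25 the log2 fold change was 2.85 (SE 0.281) germ-free, 2.52 (SE 0.228) under L. brevis and 2.79 (SE 0.239) under L. plantarum (edgeR adjusted p = 2.62e-06, 4.11e-07 and 4.01e-07). Its partners Ndc80 and Nuf2 rose less, by 1.17, 1.36 and 1.05 for Ndc80 and by 1.04, 0.95 and 0.66 for Nuf2, with every knockdown library above every control for both. Spc105R, the scaffold on which checkpoint proteins dock, rose by 2.57, 2.42 and 2.30. Nnf1a, a subunit of the Mis12 complex that joins Cenp-C to the NDC80 complex, rose by 1.68, 1.87 and 1.30 (highest edgeR adjusted p over the 3 conditions 0.00106 for Nuf2 and below that for Ndc80, Spc105R and Nnf1a).

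Mis12 itself, the subunit that names the complex of Nnf1a, did not pass the test in any condition. Its controls had 11.7 and 12.8 CPM in the germ-free group, 12.4, 11.1 and 12.4 in the L. brevis group and 11, 10.8 and 11.5 in the L. plantarum group. Its knockdown libraries had 9.37, 10.3 and 12.6 CPM in the germ-free group, 11.6, 11 and 11.9 in the L. brevis group and 9.05, 9 and 10.1 in the L. plantarum group. The groups overlapped except with L. plantarum, where the knockdown libraries were the lower ones. For Mis12 the log2 fold change was -0.19 (SE 0.137) germ-free, -0.06 (SE 0.122) under L. brevis and -0.24 (SE 0.123) under L. plantarum (edgeR adjusted p = 0.32, 0.744 and 0.159).

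Of the 5 checkpoint genes, 4 rose in germ-free flies, the same number rose under L. brevis and 3 rose under L. plantarum. BubR1 (FBgn0263855, 2R:5969099-5974385, minus strand) encodes a part of the complex that inhibits the anaphase-promoting complex. Its controls had 6.79 and 9.37 CPM in the germ-free group, 6.68, 7.64 and 10.8 in the L. brevis group and 5.03, 7.71 and 7.23 in the L. plantarum group. With Notch knocked down it had 21.3, 17 and 17.2 CPM in the germ-free group, 18.6, 20.2 and 18 in the L. brevis group and 17.4, 23 and 23.1 in the L. plantarum group. No knockdown library was as low as the highest control. Its log2 fold change was 1.20 (SE 0.232) germ-free, 1.18 (SE 0.202) under L. brevis and 1.67 (SE 0.206) under L. plantarum (edgeR adjusted p = 0.00104, 0.000224 and 1.37e-05). Bub3 and mad2, whose proteins act in the same inhibitory complex, rose by 0.97, 1.15 and 0.89 and by 1.04, 0.93 and 0.89, with no overlap between knockdown and control libraries. For Mps1, the kinase that starts checkpoint signalling, the values were 0.59, 0.86 and 0.44 (edgeR adjusted p = 0.0439, 0.00148 and 0.0833), the last of which was not called. Bub3 and mad2 share 15.9% and 11.5% of their exon bases with genes on the opposite strand.

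Bub1 (FBgn0031696, 2L:5278865-5283283, plus strand), a kinase of the kinetochore that recruits other checkpoint proteins, was not called in any condition. Controls had 13.5 and 16.6 CPM in the germ-free group, 7.19, 10.9 and 11.2 in the L. brevis group and 10.1, 20.2 and 18.2 in the L. plantarum group. Knockdown libraries had 15, 11.9 and 14 CPM in the germ-free group, 11.6, 13.8 and 8.68 in the L. brevis group and 15.5, 18.9 and 18.4 in the L. plantarum group. The ranges of the 2 genotypes overlapped, and the lowest library of each was one with L. brevis. For Bub1 the log2 fold change was -0.15 (SE 0.265) germ-free, 0.22 (SE 0.239) under L. brevis and 0.12 (SE 0.237) under L. plantarum (edgeR adjusted p = 0.717, 0.495 and 0.732). Its sign was not stable, being 0.01 in germ-free flies without control 2 and -0.12 with L. plantarum without control 1.

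The 3 genes of the RZZ complex, which brings dynein and checkpoint proteins to kinetochores, rose in every condition. Control libraries of Zwilch (FBgn0061476, 3R:31210966-31213376, minus strand) had 4.58 and 4.02 CPM in the germ-free group, 5.53, 3.43 and 5.79 in the L. brevis group and 3.89, 3.75 and 3.48 in the L. plantarum group. In knockdown libraries it had 8.64, 8.51 and 8.05 CPM in the germ-free group, 15.9, 20.2 and 14.6 in the L. brevis group and 8.09, 7 and 9.76 in the L. plantarum group. Its highest levels were those with L. brevis, and all 9 knockdown libraries exceeded all controls. For Zwilch the log2 fold change was 0.96 (SE 0.223) germ-free, 1.78 (SE 0.196) under L. brevis and 1.16 (SE 0.197) under L. plantarum (edgeR adjusted p = 0.00371, 2.85e-06 and 0.000279). Zw10 (FBgn0004643, X:2604197-2606824, plus strand) moved least of the 3 genes. Its controls had 35.7 and 38.4 CPM in the germ-free group, 40.3, 49.1 and 49.9 in the L. brevis group and 43.9, 39.4 and 35.6 in the L. plantarum group. Knockdown levels were 58.2, 50.8 and 56.8 CPM in the germ-free group, 71.8, 75.6 and 67.4 in the L. brevis group and 45, 50.9 and 55.4 in the L. plantarum group. Within each condition the genotypes did not overlap, although L. plantarum knockdown library 1 lay below the highest L. brevis controls. For Zw10 the log2 fold change was 0.58 (SE 0.124) germ-free, 0.62 (SE 0.109) under L. brevis and 0.35 (SE 0.109) under L. plantarum (edgeR adjusted p = 0.00217, 0.000256 and 0.0218). The third gene, rod, rose by 1.12, 1.03 and 1.48 (edgeR adjusted p = 0.00432, 0.00194 and 0.000132). That was less than Zwilch with L. brevis and more than Zwilch in the other conditions.

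All 5 mitotic motors rose under either bacterium and in the mean of the 3 conditions, and 4 rose in germ-free flies. The gene cmet (FBgn0040232, 2L:11261026-11269002, minus strand) encodes a CENP-E kinesin, which carries chromosomes toward the spindle equator. Its controls had 2.31 and 1.43 CPM in the germ-free group, 3.04, 2.44 and 2.62 in the L. brevis group and 0.666, 3.41 and 2.41 in the L. plantarum group. Knockdown libraries had 9.37, 9.93 and 8.83 CPM in the germ-free group, 16, 16.9 and 10.7 in the L. brevis group and 12.4, 16.2 and 16.4 in the L. plantarum group. L. plantarum control 1 had the lowest level, and every knockdown library exceeded every control. For cmet the log2 fold change was 2.31 (SE 0.446) germ-free, 2.43 (SE 0.375) under L. brevis and 2.80 (SE 0.386) under L. plantarum (edgeR adjusted p = 0.00113, 0.000111 and 5.36e-05).

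Klp10A (FBgn0030268, X:11129362-11137118, minus strand), a kinesin that shortens microtubules, had the smallest rise among the motors. Its controls had 73.5 and 69.4 CPM in the germ-free group, 53.4, 67 and 70.7 in the L. brevis group and 69.5, 67.3 and 65.1 in the L. plantarum group. Knockdown libraries had 93.7, 80.5 and 90.4 CPM in the germ-free group, 83.7, 97.6 and 81.9 in the L. brevis group and 79.4, 90.1 and 96.4 in the L. plantarum group. All knockdown libraries were above all controls by a small margin. For Klp10A the log2 fold change was 0.30 (SE 0.123) germ-free, 0.46 (SE 0.11) under L. brevis and 0.40 (SE 0.11) under L. plantarum, and the germ-free value was not called (edgeR adjusted p = 0.0721, 0.00308 and 0.0106). The other motors lay between these. Klp61F, which slides spindle microtubules apart, rose by 1.80, 2.15 and 1.32. The minus-end motor ncd rose by 1.40, 1.82 and 1.47, and Klp3A, a chromokinesin, rose by 1.32, 1.71 and 1.14 (highest edgeR adjusted p of these 3 genes 0.00335, for Klp3A in germ-free flies).

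Some of the largest rises were in the genes of the central spindle and cytokinesis, 4 of which rose in every condition. The gene tum (FBgn0086356, 2R:13856150-13858689, minus strand) encodes the GTPase-activating subunit of centralspindlin, the complex that bundles the central spindle. Its controls had 4.58 and 5.18 CPM in the germ-free group, 10.7, 7.44 and 8.41 in the L. brevis group and 7.66, 3.87 and 6.58 in the L. plantarum group. Under Notch RNAi its libraries had 42.4, 32.9 and 47.2 CPM in the germ-free group, 82.6, 98.1 and 64.6 in the L. brevis group and 44.2, 44.9 and 56.4 in the L. plantarum group. Even the lowest knockdown library had more than the highest control, and L. brevis knockdown libraries were the highest. For tum the log2 fold change was 3.07 (SE 0.284) germ-free, 3.21 (SE 0.237) under L. brevis and 3.00 (SE 0.239) under L. plantarum (edgeR adjusted p = 2.05e-06, 9.18e-08 and 3.01e-07). Its partner pav, the kinesin of centralspindlin, rose by 2.65, 2.89 and 2.48. The actin-ring scaffold scra, which is anillin, rose by 2.06, 2.09 and 1.59. The microtubule bundler feo, which is PRC1 in vertebrates, rose by 1.96, 2.19 and 1.52 (highest edgeR adjusted p of these 3 genes 8.49e-05, for feo with L. plantarum).

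The exchange factor pbl (FBgn0003041, 3L:7896109-7911954, minus strand), which acts at the cleavage furrow and binds centralspindlin, went another way. Its controls had 37 and 56.6 CPM in the germ-free group, 33.8, 42.7 and 36.5 in the L. brevis group and 54.2, 66.5 and 64.9 in the L. plantarum group. Knockdown libraries had 42.2, 43.2 and 45.4 CPM in the germ-free group, 70.9, 64.1 and 65.2 in the L. brevis group and 49.4, 53 and 63.9 in the L. plantarum group. With L. brevis the knockdown libraries were all above the controls, in germ-free flies they lay between the 2 controls, and with L. plantarum the genotypes overlapped. For pbl the log2 fold change was -0.10 (SE 0.159) germ-free, 0.83 (SE 0.143) under L. brevis and -0.16 (SE 0.142) under L. plantarum (edgeR adjusted p = 0.67, 0.000247 and 0.432), so pbl rose with L. brevis and was not called in the other conditions. The germ-free value was 0.24 without control 2. The difference between these effects was tested directly and is given with the other differences further on.

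Both listed genes of the chromosomal passenger complex, which corrects wrong attachments and later guides cytokinesis, rose in every condition. The gene borr (FBgn0032105, 2L:9251472-9253118, minus strand) encodes Borealin. Its controls had 4.88 and 3.63 CPM in the germ-free group, 9.85, 7.87 and 6.41 in the L. brevis group and 5.96, 5.52 and 5.7 in the L. plantarum group. Knockdown levels of borr were 28.7, 27.8 and 35 CPM in the germ-free group, 59.3, 72.1 and 51.8 in the L. brevis group and 27.4, 29.5 and 41.3 in the L. plantarum group. All knockdown libraries stood well above all controls, those with L. brevis highest. For borr the log2 fold change was 2.83 (SE 0.235) germ-free, 2.92 (SE 0.196) under L. brevis and 2.51 (SE 0.197) under L. plantarum (edgeR adjusted p = 4.58e-07, 2.13e-08 and 1.67e-07). Incenp (FBgn0260991, 2R:7278467-7281795, plus strand), the scaffold of the complex, started from a higher level. Its controls had 46.3 and 48.2 CPM in the germ-free group, 62.4, 48.2 and 58.6 in the L. brevis group and 56.7, 43.9 and 48.6 in the L. plantarum group. Under Notch RNAi it had 79.7, 71.7 and 84 CPM in the germ-free group, 99.8, 105 and 82.7 in the L. brevis group and 65.3, 75.5 and 82 in the L. plantarum group. The genotypes did not overlap for Incenp either, but its log2 fold change was 0.73 (SE 0.144) germ-free, 0.77 (SE 0.127) under L. brevis and 0.58 (SE 0.127) under L. plantarum (edgeR adjusted p = 0.00116, 0.000162 and 0.00218), less than that of borr in each condition.

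All 4 condensin genes rose in every condition. SMC2 (FBgn0027783, 2R:14848621-14852653, minus strand) encodes an ATPase core subunit. Its controls had 8.31 and 8.03 CPM in the germ-free group, 11.8, 8.63 and 12.3 in the L. brevis group and 9.92, 10.2 and 11.9 in the L. plantarum group. Its knockdown libraries had 26.7, 23.7 and 28.6 CPM in the germ-free group, 42.6, 51.9 and 34.5 in the L. brevis group and 24.7, 27.4 and 32.3 in the L. plantarum group. No library of one genotype reached the range of the other. For SMC2 the log2 fold change was 1.69 (SE 0.194) germ-free, 1.98 (SE 0.168) under L. brevis and 1.40 (SE 0.166) under L. plantarum (edgeR adjusted p = 1.07e-05, 2.24e-07 and 9.57e-06). The other core subunit, glu, rose by 1.44, 2.07 and 1.47, and the regulatory subunit Cap-G rose by 1.24, 1.56 and 1.58. The kleisin subunit barr (FBgn0014127, 2L:20058163-20061370, minus strand) moved least. Its controls had 19.2 and 22.4 CPM in the germ-free group, 14.4, 17.8 and 18.4 in the L. brevis group and 16.4, 13.6 and 16.2 in the L. plantarum group. Knockdown levels of barr were 28.1, 28.7 and 27.8 CPM in the germ-free group, 42.9, 42.2 and 32.7 in the L. brevis group and 24, 23.9 and 26.9 in the L. plantarum group. Its lowest knockdown library, with L. plantarum, was close to its highest control, in germ-free flies. For barr the log2 fold change was 0.44 (SE 0.144) germ-free, 1.22 (SE 0.129) under L. brevis and 0.70 (SE 0.129) under L. plantarum (edgeR adjusted p = 0.0284, 1.94e-06 and 0.000581).

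Among genes of spindle poles and microtubules, asp (FBgn0000140, 3R:24753849-24760513, plus strand) had the largest fold change of all 38 genes in the mean of the 3 conditions, 3.63 (SE 0.51). Its protein focuses microtubules at spindle poles. Controls had 0.485 and 1.34 CPM in the germ-free group, 0.0675, 1.19 and 0.906 in the L. brevis group and 0.148, 1.18 and 0.0382 in the L. plantarum group. Knockdown libraries had 4.59, 4.83 and 6.45 CPM in the germ-free group, 9.46, 10.4 and 5.97 in the L. brevis group and 8.94, 11.6 and 15.4 in the L. plantarum group. The genotypes did not overlap, but control levels rested on few reads, with 1 read in the lowest library, and differed widely between replicates. The log2 fold change had large errors, at 2.57 (SE 0.918) germ-free, 3.57 (SE 0.804) under L. brevis and 4.75 (SE 0.871) under L. plantarum (edgeR adjusted p = 0.0481, 0.00303 and 0.000939). The germ-free call of asp was lost in 7 of its 13 alternatives, with adjusted p up to 0.273.

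The gene msps (FBgn0027948, 3R:16050801-16060675, plus strand), which encodes a microtubule polymerase, was not called in any condition. Its controls had 23.9 and 25.1 CPM in the germ-free group, 12.3, 14.1 and 21.3 in the L. brevis group and 11.2, 36.6 and 29.9 in the L. plantarum group. Knockdown libraries had 20.5, 22 and 19.5 CPM in the germ-free group, 15.9, 14.4 and 12.9 in the L. brevis group and 29, 31 and 38.6 in the L. plantarum group. In knockdown flies the 3 conditions did not overlap, L. brevis being lowest and L. plantarum highest, while in controls they overlapped and L. plantarum control 1 was the lowest library of all. The genotypes overlapped for msps except in germ-free flies, where the knockdown libraries were below both controls. For msps the log2 fold change was -0.24 (SE 0.349) germ-free, -0.15 (SE 0.316) under L. brevis and 0.34 (SE 0.313) under L. plantarum (edgeR adjusted p = 0.636, 0.746 and 0.439). It was 0.12 with L. brevis without control 3 and -0.02 with L. plantarum without control 1. For Grip91, a subunit of the gamma-tubulin ring complex that nucleates microtubules, the values were 0.40, 0.56 and 0.50 (edgeR adjusted p = 0.0857, 0.00665 and 0.0179), the first of which was not called.

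Of the pair of genes whose products keep sister chromatids joined until anaphase, pim (FBgn0003087, 2L:10362989-10364092, plus strand) encodes securin, the inhibitor of separase. Its controls had 7.74 and 8.21 CPM in the germ-free group, 14.5, 10.5 and 13 in the L. brevis group and 12.4, 6.11 and 7.88 in the L. plantarum group. Knockdown libraries had 10.5, 11.9 and 13.4 CPM in the germ-free group, 24.1, 23.5 and 22.6 in the L. brevis group and 13.1, 12.9 and 14.6 in the L. plantarum group. Within each condition the knockdown libraries were the higher ones, while the L. brevis controls overlapped knockdown libraries of the other conditions. For pim the log2 fold change was 0.58 (SE 0.226) germ-free, 0.88 (SE 0.197) under L. brevis and 0.62 (SE 0.199) under L. plantarum (edgeR adjusted p = 0.0605, 0.00203 and 0.0244), the first of which was not called. The cohesin subunit vtd (FBgn0260987, 3L:27136525-27157999, plus strand), which separase cuts, was among the most abundant of the 38 genes. Its controls had 50.2 and 61.8 CPM in the germ-free group, 59, 72.7 and 71.8 in the L. brevis group and 59.7, 56.6 and 59.1 in the L. plantarum group. Under Notch RNAi it had 76.4, 71 and 69.6 CPM in the germ-free group, 82.2, 107 and 83.1 in the L. brevis group and 72.2, 69.4 and 70.5 in the L. plantarum group. Genotypes were again apart within conditions only. For vtd the log2 fold change was 0.37 (SE 0.126) germ-free, 0.42 (SE 0.111) under L. brevis and 0.27 (SE 0.112) under L. plantarum (edgeR adjusted p = 0.0345, 0.00647 and 0.0714), the last of which was not called.

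**Figure D2:**
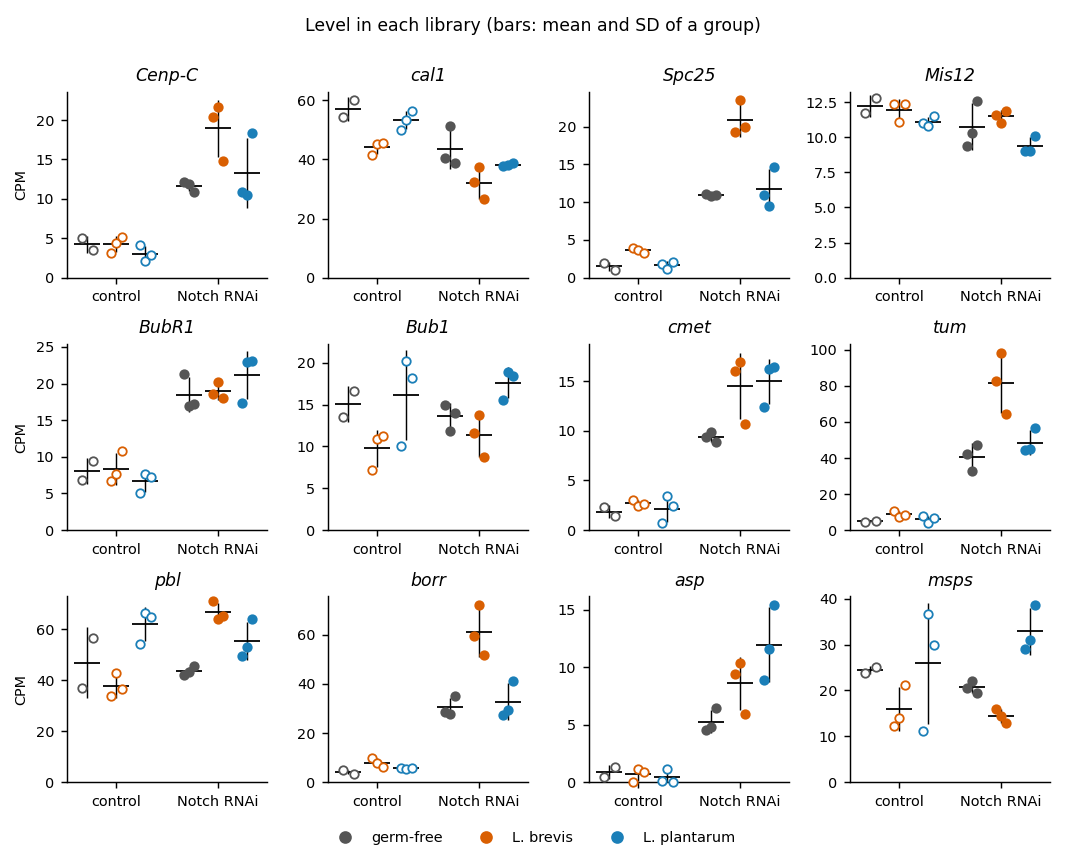
CPM in each library (y axes start at 0) for 12 of the genes, with open points for control and filled points for Notch RNAi libraries, coloured by bacterial condition. Bars are the mean and SD of a group of 2 or 3 libraries. Cenp-C, Spc25, BubR1, cmet, tum, borr and asp separate the genotypes in every condition, pbl does so with L. brevis, and for Mis12, Bub1 and msps the ranges of the genotypes over all conditions overlap.

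The rises were thus uneven within complexes. Per 1000 exon bases, the control median over 8 libraries was 23.5 CPM for vtd, 19.3 for Bub3, 17.1 for Incenp and 16.8 for mad2, the upper end of the list. At the lower end it was 0.110 for asp, 0.258 for Spc105R, 0.346 for cmet and 0.812 for Cenp-C. Under Notch RNAi the medians over 9 libraries were 28.6 CPM for vtd, 37.2 for Bub3, 28.9 for Incenp and 31.8 for mad2. They were 1.41 for asp, 1.32 for Spc105R, 1.78 for cmet and 2.61 for Cenp-C. On this scale tum went from 2.98 to 20.1 and borr from 4.49 to 27.0 CPM, which brought borr near the level of its partner Incenp.

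**Figure D3:**
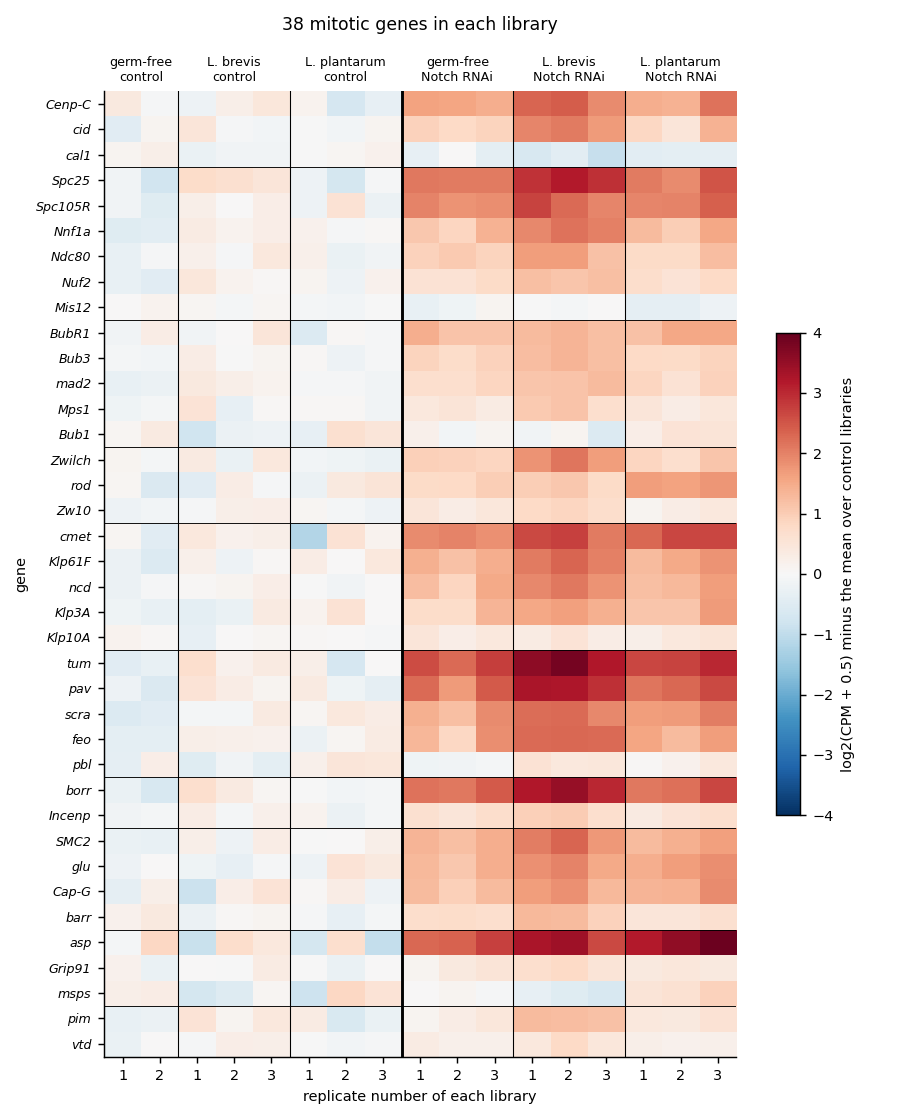
Level of each of the 38 genes (rows, grouped by role) in each of the 17 libraries (columns), as log2(CPM + 0.5) minus the gene's mean over the 8 control libraries. Red is higher and blue lower, with the colour scale ending at -4 and 4. The 9 Notch RNAi libraries on the right are red for most genes and for many of them deepest in the L. brevis columns, while cal1 is blue.

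Other genes of mitosis were examined to place the 38. Of 84 further genes (other kinetochore and checkpoint genes, the anaphase-promoting complex, other cohesin genes and separase, gamma-tubulin and augmin, centrosome, other motors, septins and contractile ring), 82 were tested. In the mean of the 3 conditions 52 were higher, 10 were lower and 20 were not called. Of all genes 29.6% were higher and 26.9% lower there. The median log2 fold change of the 82 was 0.48, where the 38 genes had a median of 1.32 and all genes 0.02. In single conditions 33 were higher and 5 lower germ-free, 49 and 5 under L. brevis, and 38 and 7 under L. plantarum. The shares of all genes higher and lower were 17.5% and 14.7%, 22.3% and 20.3%, and 17.6% and 16.2% in that order. The largest rises were those of the gamma-tubulin isoform gammaTub37C (log2 fold change 3.58, SE 0.403), of sti, the citron kinase (3.11, SE 0.206), and of sub, a kinesin related to pav (3.10, SE 0.242). For gammaTub37C group means were 0.106 to 0.330 CPM in controls and 1.81 to 3.93 CPM under Notch RNAi, and 20.6% of the exon bases of sub are shared with a gene on the opposite strand.

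The largest falls were those of fzr (-1.74, SE 0.0884), of mei-S332 (-0.66, SE 0.0925) and of tacc (-0.65, SE 0.0476), with edgeR adjusted p = 1.98e-10, 1.53e-05 and 1.1e-08. The product of mei-S332 is a shugoshin that protects centromeric cohesion, and that of tacc is a partner of msps at centrosomes. The gene fzr encodes the Cdh1 activator of the anaphase-promoting complex, which acts at mitotic exit and in cells that leave the cycle. Its group means were 142 to 152 CPM in controls and 41.6 to 45.2 CPM under Notch RNAi. The alternative activator fzy, which is Cdc20 and acts at the metaphase to anaphase transition, rose by 2.05 (SE 0.131, edgeR adjusted p = 2.44e-09), and aurB, the kinase of the passenger complex, rose by 2.36 (SE 0.154, edgeR adjusted p = 5.24e-09). Both were named after their values were seen. Between L. brevis and germ-free knockdown flies 13 of the 82 were higher and 3 lower, against 4.87% and 4.49% of all genes. Between L. brevis and L. plantarum knockdown flies 11 were higher and 3 lower, against 7.36% and 7% of all genes.

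The second question was whether the bacteria altered these genes when Notch was knocked down. With L. brevis 19 of the 38 genes were above their germ-free level and 1, cal1, was below it, where 9.36% of all genes were called, 4.87% higher and 4.49% lower. The median log2 difference of the 38 genes was 0.57, against 0.00 over all genes. All 5 genes of the central spindle and cytokinesis were higher with L. brevis, as were 3 of the 6 outer plate genes, 2 of 5 checkpoint genes, 2 of 3 RZZ genes, 2 of 5 motors and 2 of 4 condensin genes. The others were cid, borr and pim, and 0 of the 3 genes of spindle poles and microtubules were called.

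The largest differences were those of cid, Zwilch and borr. In germ-free, L. brevis and L. plantarum Notch RNAi libraries cid had 2.11, 1.9 and 2.08, then 4.84, 5.41 and 4.03, then 1.99, 1.43 and 3.12 CPM. All L. brevis libraries were above the rest, as they were for Zwilch and borr at the levels given earlier. Without overlap, 17.6% of all genes were higher with L. brevis than germ-free and 20.7% higher than with L. plantarum. Of the 38 genes 27 and 23 were. The log2 difference between L. brevis and germ-free flies was 1.23 (SE 0.322) for cid, 1.01 (SE 0.19) for Zwilch and 1.00 (SE 0.182) for borr (edgeR adjusted p = 0.0276, 0.0058 and 0.00459). The smallest called differences were 0.43 (SE 0.0954) for Bub3 and 0.37 (SE 0.108) for Zw10 (edgeR adjusted p = 0.0132 and 0.0423). For cal1 the difference was -0.44 (SE 0.122, edgeR adjusted p = 0.0366), with L. brevis libraries at 32.5, 37.3 and 26.5 CPM and germ-free ones at 40.4, 51.2 and 38.7 CPM.

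These counts depended on single libraries. They were 11 without germ-free Notch RNAi library 1, 5 without library 2 of that group, 12 without L. brevis Notch RNAi library 1 and 7 without its library 2. A fit with 1 library left out had a smaller group for every gene. Here and below, counts from such fits were not set against the share of all genes called in the same fit. The same holds for counts from the other alternatives, DESeq2 included. The 5 genes called in each of the 6 fits were Zwilch, borr, Nnf1a, Klp61F and pim. Other markers moved with the same comparison. Summed ovary and germline markers were 46.5 to 52.3 CPM in L. brevis knockdown libraries and 25.9 to 29.2 CPM in germ-free ones, with 1 of 8 tested genes (piwi) called higher. Summed enteroendocrine markers were 16400 to 27900 and 40000 to 52500 CPM, but the list was split, with 2 of 9 genes (CCHa1 and Dh31) higher and 3 (NPF, AstC and Orcokinin) lower. Of the 7 progenitor markers Delta was higher, at 151 to 216 CPM with L. brevis and 89.3 to 109 CPM germ-free, and 1 other, Sox100B, was lower. Of the 11 enterocyte markers 1 was lower, as was 1 of the 4 tested haemocyte markers. The part of these markers in the difference was not tested.

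Against L. plantarum, which is compared here through the same L. brevis libraries, 20 of the 38 genes were higher with L. brevis and 2, rod and msps, were lower. Of all genes 14.4% were called, 7.36% higher and 7% lower. The median log2 difference was 0.43, against -0.01 over all genes. The largest rises were again those of cid (1.12, SE 0.321), Zwilch (1.03, SE 0.19) and borr (0.90, SE 0.182), for which edgeR gave an adjusted p of 0.033, 0.00664 and 0.00876. The smallest called rise was that of vtd, 0.36 (SE 0.111, edgeR adjusted p = 0.0421). For rod, L. brevis libraries had 12.9, 13.8 and 10.9 CPM and L. plantarum libraries 20.9, 20 and 22.6 CPM, with no overlap and a log2 difference of -0.76 (SE 0.224, edgeR adjusted p = 0.0368). For msps they had 15.9, 14.4 and 12.9 and 29, 31 and 38.6 CPM, also with no overlap, and the difference was -1.19 (SE 0.317, edgeR adjusted p = 0.0276). Of all genes 16.5% were lower with L. brevis without overlap, as were 4 of the 38.

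The count of 22 fell to 8 without L. brevis Notch RNAi library 1, to 5 without its library 2, to 6 without L. plantarum Notch RNAi library 1 and to 2 without its library 2. Zwilch and barr were the 2 genes called in every such fit. The calls of rod and msps were lost in each of the 6 fits. Markers moved with this comparison too. Summed enteroendocrine markers were 16400 to 27900 CPM with L. brevis and 30100 to 36200 CPM with L. plantarum, with 1 of 9 genes called higher and 2 lower. Summed ovary and germline markers were 46.5 to 52.3 and 24.1 to 41.6 CPM, with 1 of 8 tested genes higher, and the groups did not overlap in either sum. Delta was higher with L. brevis, the L. plantarum libraries having 104 to 122 CPM, and 3 of the 7 progenitor markers (klu, Sox100B and Stat92E) were lower. In addition 1 of 11 enterocyte and 1 of 4 tested haemocyte markers were lower. What part these markers had in the difference was not tested.

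Between L. plantarum and germ-free knockdown flies no difference was called. Of the 38 genes 0 passed, as did 0.136% of all genes, and 3 of the 38 had an unadjusted p under 0.05 by edgeR, against 10.6% of all genes. DESeq2 called 1, which was rod. Its L. plantarum libraries lay above the germ-free ones, at 11.1, 11.2 and 12.8 CPM, by 0.86 (SE 0.225, edgeR adjusted p = 0.191). The median log2 difference of the 38 genes was 0.14, against 0.00 over all genes, and for 28 of them it was positive, as for 49.3% of all genes.

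**Figure D4:**
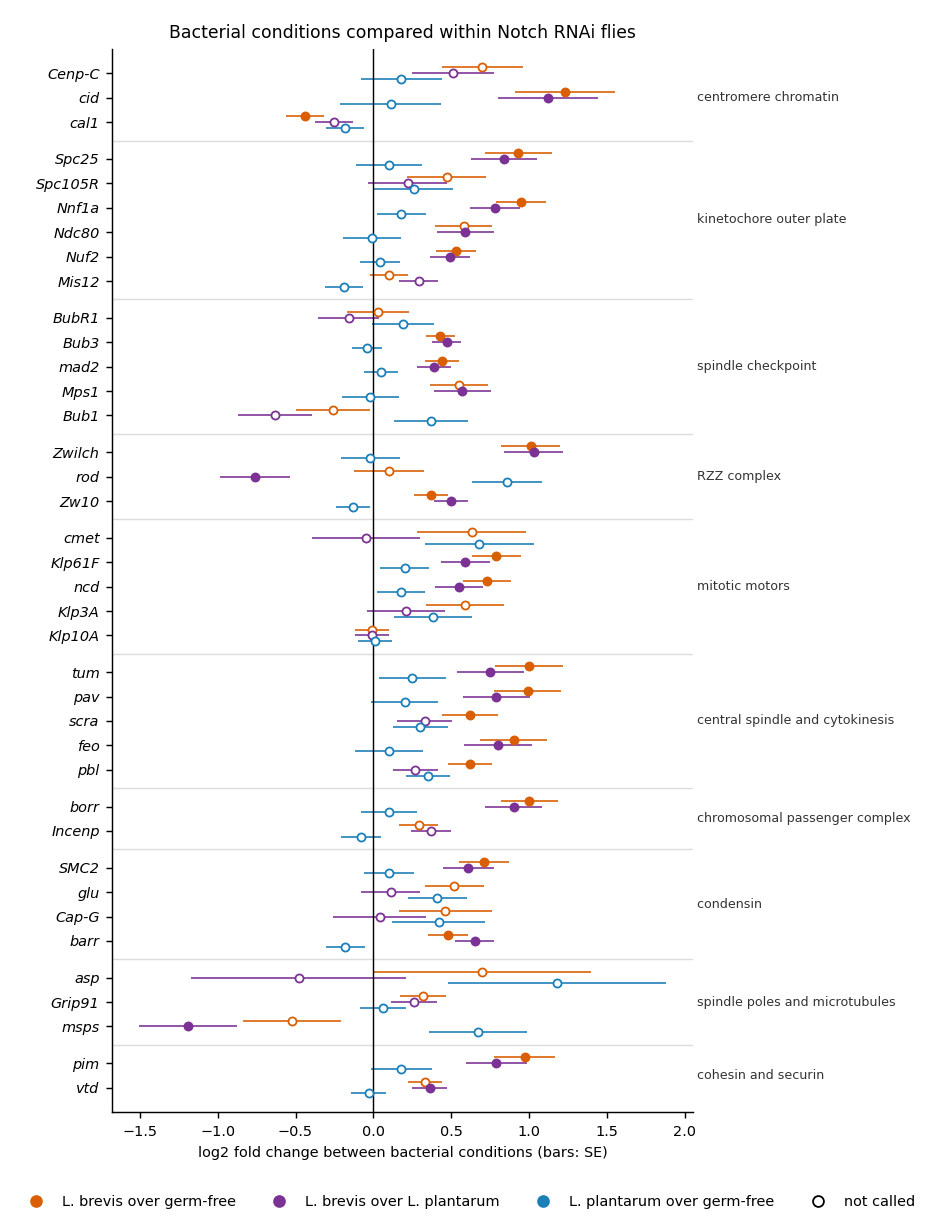
Log2 fold change between bacterial conditions in Notch RNAi flies for each of the 38 genes (x axis, bars are SE), grouped by role as at the right. Filled points were called at an adjusted p under 0.05. The median is 0.57 for L. brevis over germ-free and 0.43 for L. brevis over L. plantarum, whereas none of the points for L. plantarum over germ-free is filled. The comparisons share libraries.

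Exon length moved with these bacterial comparisons, in all genes and in the 38. Genes with a mean count of 100 or more are called well-counted here, and the 38 genes were not filtered in this way. Deviation is log2 CPM minus the mean over all libraries. In the libraries with L. brevis, well-counted genes with over 6000 exon bases had a median deviation of -0.05 to -0.42. In L. plantarum knockdown libraries it was 0.15 to 0.28. Across the 38 genes the Spearman correlation between exon length and the log2 difference was -0.71 for L. brevis against L. plantarum, -0.35 for L. brevis against germ-free and 0.62 for L. plantarum against germ-free. Over 8560 well-counted genes it was -0.33, -0.26 and 0.24. All these points share the same libraries, so the values are descriptions. For the Notch RNAi effect the correlation across the 38 genes was 0.00, 0.02 and 0.17 in germ-free, L. brevis and L. plantarum flies.

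Genes were also compared within 5 bins of exon length. Between L. brevis and germ-free knockdown flies the median of the 38 genes lay above that of all well-counted genes in each bin, by 0.56 to 0.87. In the bin from 2000 to 4000 exon bases, the median difference of 15 of the 38 genes was 0.58, against 0.02 for 2643 genes of that length. For over 6000 bases it was 0.47 for 5 of the 38 genes (Spc105R, rod, cmet, asp and msps), against -0.25 for 768 well-counted genes. Between L. brevis and L. plantarum, the same 15 genes had a median of 0.59, against 0.04, and the same 5 genes had -0.48, against -0.43. When the trend of expression with exon length was removed in each library, an alternative chosen after seeing the data, 21 of the 38 genes were called between L. brevis and germ-free knockdown flies and 16 between L. brevis and L. plantarum. Neither count was set against the share of all genes called in that fit, which may differ from the shares given above. The difference of rod between L. brevis and L. plantarum was then -0.36 (edgeR adjusted p = 0.209), that of msps -0.76 (edgeR adjusted p = 0.0437), and that of Zwilch 0.92 (edgeR adjusted p = 0.00879).

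**Figure D5:**
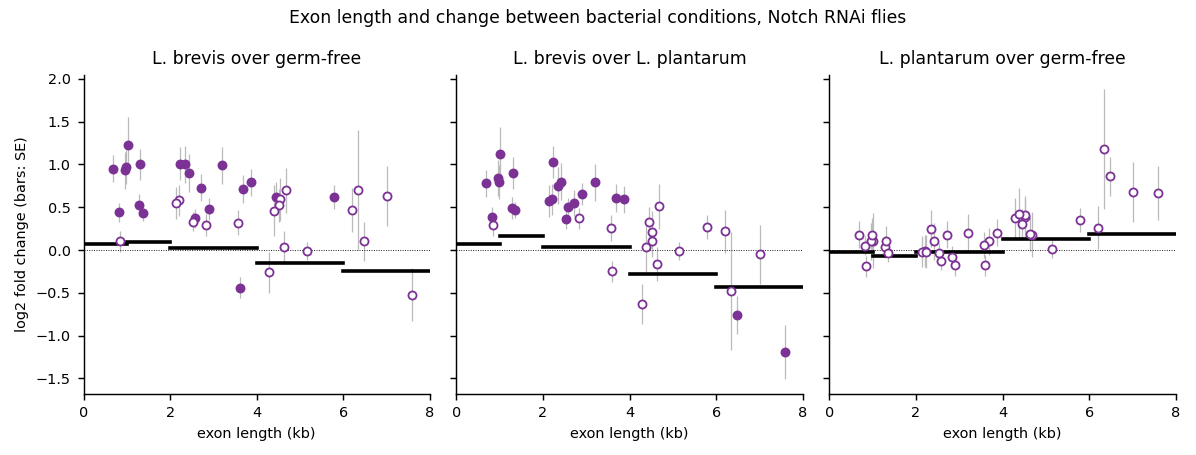
Log2 fold change between bacterial conditions in Notch RNAi flies (y axis, bars are SE) against exon length in kb (x axis) for the 38 genes, filled where called. Black lines are the medians of all well-counted genes in 5 bins of length, the last of which holds all genes over 6000 bases. In the L. brevis to germ-free panel most of the 38 points lie above the black lines at every length. In the L. brevis to L. plantarum panel the points fall with length. Their median there lies above the black line in each bin up to 6000 bases and near it beyond. In the L. plantarum to germ-free panel the points rise with length.

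In control flies 5 of the 38 genes were higher with L. brevis than without bacteria and 0 were lower, where 7.97% of all genes were called and 5.01% called higher. Their median log2 difference was 0.28, against 0.01 over all genes. The genes were Spc25, borr, Nnf1a, Nuf2 and mad2. For Spc25 the levels given earlier did not overlap between these groups, as held for 21.6% of all genes in that direction. Its log2 difference was 1.26 (SE 0.272, edgeR adjusted p = 0.0153). Differences for the others were 0.91 for borr, 0.76 for Nnf1a, 0.61 for Nuf2 and 0.55 for mad2 (edgeR adjusted p = 0.0254, 0.0274, 0.0241 and 0.0199). The count was 1 without germ-free control 1, 0 without germ-free control 2 and 0 without L. brevis control 1, and it was also 0 when the 5 libraries of these groups were fitted alone. With the length trend removed it was 2 (Spc25 and scra). Of the 7 progenitor markers 2 were also higher in this comparison, Sox21a and Delta, the latter at 22.4 to 37.3 CPM with L. brevis and 9.24 to 15.1 CPM germ-free. Of the 9 enteroendocrine markers 1 (CCHa1) was higher, and 1 of 11 enterocyte and 1 of 8 tested ovary and germline markers were lower. Their part in the difference of the 5 genes was not tested. The Spearman correlation between exon length and this difference was -0.53 across the 38 genes and -0.48 across all well-counted genes.

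Of the 38 genes, 2 were called between L. brevis and L. plantarum controls, where 2.81% of all genes were. Spc25 was higher with L. brevis, by 1.10 (SE 0.237, edgeR adjusted p = 0.03), and pbl was lower, with a difference of -0.72 (SE 0.143, edgeR adjusted p = 0.0253). The L. brevis and L. plantarum controls did not overlap for either gene. Of all genes 11.2% were higher and 9.14% lower with L. brevis without overlap, as were 4 and 2 of the 38. The count was 0 without L. brevis control 1, 1 without L. brevis control 2, 6 without L. plantarum control 1, and 0 without L. plantarum control 2 or control 3. It was 0 in a fit of these groups alone, and 1 with the length trend removed. Among the markers 1 progenitor gene (peb) and 1 enterocyte gene (Myo31DF) were lower with L. brevis, and their part was not tested. L. plantarum control 1 stood apart from its group in long genes, with a median deviation of -0.18 for well-counted genes over 6000 bases. Controls 2 and 3 had 0.27 and 0.22. Between L. plantarum and germ-free controls 0 of the 38 genes were called, as were 0.161% of all genes. There 6 of the 38 had an unadjusted p under 0.05 by edgeR, against 14.5% of all genes, and DESeq2 called 2 (Klp61F and scra). The smallest p was that of scra, with a difference of 0.77 (SE 0.209, edgeR adjusted p = 0.123) in the fit of all libraries. With the length trend removed scra was called.

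Finally, the Notch RNAi effects were compared between bacterial conditions by interaction terms. Between L. brevis and germ-free flies 0 of the 38 effects differed at the threshold, where 0.798% of all genes did. Here 4 of the 38 had an unadjusted p under 0.05 by edgeR, against 15.4% of all genes, and DESeq2 called 2 (pbl and barr). Nearest the threshold was pbl, whose Notch RNAi effect was larger with L. brevis by 0.93 (SE 0.213, edgeR adjusted p = 0.0547). This difference passed in 5 of 19 alternatives, with adjusted p from 0.00681 to 0.265. The count was 1 without L. brevis control 2 (pbl) and 1 without L. brevis Notch RNAi library 3 (barr). The difference of barr, named after its values were seen, was 0.78 (SE 0.19, edgeR adjusted p = 0.0694).

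Between L. plantarum and germ-free flies 0 of the 38 effects differed, as did 0.0255% of all genes, and 0 had an unadjusted p under 0.05 by edgeR or a call by DESeq2. The smallest p was that of Klp61F, at -0.47 (SE 0.243, edgeR adjusted p = 0.447). Between L. brevis and L. plantarum 0 of the 38 differed, as did 0.017% of all genes, while 7 had an unadjusted p under 0.05 by edgeR, against 9.39% of all genes, and DESeq2 called 1. That was pbl, whose difference was 0.98 (SE 0.202, edgeR adjusted p = 0.204; DESeq2 adjusted p = 0.00726). The median of the 38 interaction terms was 0.19 for L. brevis minus germ-free, -0.07 for L. plantarum minus germ-free and 0.26 for L. brevis minus L. plantarum, with medians over all genes of -0.01, -0.02 and 0.00. In the edgeR fit of all 17 libraries, then, no gene of the 38 passed the threshold for a difference of its Notch RNAi effect, while other edgeR fits called pbl, barr or both between L. brevis and germ-free flies.

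The authors' deposited tables of comparisons list all 38 genes among 10201. At a false discovery rate under 0.05 in the authors' deposited tables, 30 of the 38 were higher and 1 lower under Notch RNAi in the germ-free condition, 34 and 1 under L. brevis, and 31 and 1 under L. plantarum. The shares of all listed genes past that rate were 35.3%, 45.9% and 36.4% in the authors' deposited tables. Between knockdown groups, the authors' deposited table for L. brevis against germ-free gave 19 higher and 1 lower, and that for L. brevis against L. plantarum gave 20 higher and 2 lower, with 11.8% and 17.6% of all listed genes past the rate. For L. plantarum against germ-free knockdown flies, the authors' deposited table gave 1 higher and 0 lower, with 0.961% of listed genes past the rate.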

How the data were processed

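The authors deposited read counts for each gene as whole numbers, from 17 libraries in 6 groups. The submitters' processing notes name FastQC, Trimmomatic, HISAT2, SAMtools and edgeR. The counting tool, the use of strand and the genome build are not given in the sources used here. The log2 fold changes, p-values and false discovery rates of 8 tables of comparisons were computed by the authors and deposited with the counts. All count columns matched a sample by name (0 unmatched), and symbols matched 17599 of 17737 identifiers. Coordinates and exon lengths are those of Ensembl's BDGP6 annotation and may differ from the authors' build. Of the 38 genes 12 share some exon bases with another gene, none over 25%.

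The analysis used edgeR 4.0.16 under R 4.3.3, with DESeq2 1.42.0 as an alternative. Genes were filtered with filterByExpr (11786 kept, with 99.98% of counts), and libraries were scaled by the trimmed mean of M-values. A single robust quasi-likelihood fit held all 17 libraries, with a mean per group and no replicate block, so that the 2 germ-free controls shared the spread of the other groups. Its common biological coefficient of variation was 0.23. Adjusted p is by Benjamini-Hochberg over all tested genes with a threshold of 0.05, and SE follows from the fold change and the F statistic. CPM are scaled by those factors to 1000000 counts, and levels are compared between genes only per 1000 exon bases. The fit was checked on simulated counts. Replicates of a group differed by more than sampling noise (chi-square per degree of freedom 29.7 to 228.3). Ribosomal RNA genes took 10.63% to 19.91% of counts. Reads carry no molecular identifiers, so counts may include copies of a molecule.

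The genes, role groups, lists and tests were chosen with earlier results of these data known. In each role group the genes with the largest and the smallest mean Notch RNAi effect are given in every library. For bacterial comparisons the called genes are named, or, beyond 6, the 3 largest and 3 smallest differences, and where none was called the gene with the smallest p. Of the other mitosis genes the 3 largest rises and 3 largest falls are named. Sequences were not used here. The progenitor marker esg and the contractile ring gene zip were not analysed here.

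Alternatives were DESeq2 size factors, DESeq2's test, no filter, a mean count of at least 50, ribosomal RNA genes left out, only the compared groups, each library left out, a replicate block, and removal of each library's trend with exon length, the last chosen after seeing the data.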

Additional observations from a re-analysis of the deposited data

How the results depend on the processing

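Counts of the 38 genes called under Notch RNAi stayed within 1.5 times their value in every alternative run. Leaving out 1 library at a time gave 25 to 27 genes in germ-free flies, 35 in each fit with L. brevis, 28 to 32 with L. plantarum and 34 to 35 for the mean. Within knockdown flies it gave 5 to 20 for L. brevis against germ-free, 2 to 19 for L. brevis against L. plantarum and 0 in each fit for L. plantarum against germ-free. In controls it gave 0 to 5, 0 to 6 and 0 in each fit, and for the interaction terms 0 to 1 (L. brevis minus germ-free) and 0 in each fit of the other pairs. DESeq2 called 1 gene for L. plantarum against germ-free knockdown flies, 8 for L. brevis and 2 for L. plantarum against germ-free controls, and 2 and 1 for the interactions of L. brevis with germ-free and with L. plantarum. Fitting only the compared groups gave 0 for both L. brevis comparisons of controls. A mean count of at least 50 gave 1 and the length trend removed gave 2 for the L. brevis minus germ-free interaction. The length trend removed also gave 2, 1 and 1 for the L. brevis to germ-free, L. plantarum to germ-free and L. brevis to L. plantarum comparisons of controls. The counts from alternatives in this section were not set against the share of all genes called in the same fit. The shares given in the results are those of the main edgeR fit. The cause of these moves was not tested. For the genes given in every library, group means of CPM were also computed with ribosomal RNA genes left out before scaling. This takes the 10.63% to 19.91% of counts in ribosomal RNA genes out of the library totals used for scaling, which by itself changes CPM. Of 120 means 80 then moved by at least the SD of their group, and 40 moved by less.

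Signs turned only for values that were not called. With 1 library left out, Bub1 ranged from -0.28 (without control 1) to 0.01 (without control 2) in germ-free flies, from -0.12 (without control 1) to 0.31 under L. plantarum, and from -0.02 to 0.13 in the mean. For pbl in germ-free flies it ranged from -0.37 to 0.24 (without control 1 and 2). For msps it ranged from -0.30 to 0.12 (without controls 1 and 3) under L. brevis, from -0.02 to 0.68 (without controls 1 and 2) under L. plantarum and from -0.14 to 0.10 in the mean, which was 0.00 with the length trend removed.

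The replicate numbers were not taken to pair the samples, since 14 and not all of the 40 same-numbered pairs correlated above 0.1 (range -0.20 to 0.348). The 80 differently numbered pairs ranged from -0.422 to 0.407. These correlations are of deviations from group means, which mirror each other in the group of 2 libraries. They therefore do not show that a pairing is absent. With the number as a replicate block the counts in the order above were 31, 35, 32 and 36 under Notch RNAi, 19, 21 and 0 in knockdown flies, 5, 2 and 0 in controls and 1, 0 and 0 for the interactions. Genes of few reads, asp first, and groups of 2 or 3 pools limit what could be called.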
